A study of Aedes aegypti with 6 samples.

Results

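The change between larva and adult at collection site C was examined for genes and splice junctions that changed strongly there and did not change the same way at the other 2 sites, K1 and K3. A feature was kept when its higher library at C held at least 100 reads, when its level, in counts per 1000000 reads of the library (CPM), differed at least 4-fold between the stages at C, and when it did not change at least 2-fold in the same direction at K1 or at K3. This left 164 of 3075 gene identifiers with 100 reads, 87 of 1494 RefSeq genes measured by their junction reads, and 137 of 2232 single junctions. The fold at C and the folds at K1 and K3 chose these members, so they are given as a description, with no test.

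The series holds whole bodies of the yellow fever mosquito Aedes aegypti from 3 collection sites, with 1 library of larvae and 1 of adults per site. Each library came from total RNA of a pool of 10 mosquitoes, and the 2 libraries of C, labelled location 3, are compared here with the 4 of K1 (location 1) and K3 (location 2). The labels name no treatment, strain, sex, blood meal or larval instar, so these may differ between the pools of a site as well as between sites. With 1 library per stage and site there is no replicate check. All intervals below are 95% intervals for counting error only, and reads copied during amplification are not independent molecules.

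Mosquitoes live as feeding larvae in water, pass through a pupal stage in which most larval tissues are broken down and rebuilt, and emerge as flying adults that mate and, in females, take blood. Much of the genome changes its transcript level over this metamorphosis, including genes of cuticle, digestion, flight muscle, smell and reproduction. A splice junction is a place where a read runs from one exon into the next across a removed intron, so its reads count spliced RNA and show which exons were joined. In bulk samples, fewer cells of a type and less RNA per cell cannot be told apart.

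The C larva library held 18328454 reads in genes and the C adult library 4360094, and the other libraries held 3271618 to 13758058. A gene with 100 reads therefore stood at 5.46 CPM in the C larva and at 22.9 CPM in the C adult, so a gene needed a higher level to be kept as adult-high than as larva-high. Reads mapped to several places made up 11.5% of the C larva table and 39.3% of the C adult table, and the adult share was the higher one at K1 and K3 too. Over the 3075 identifiers with 100 reads the median log2 change from larva to adult was -1.24 at C, and over those with a fold at the other sites it was -0.92 at K1 and -0.42 at K3. TMM scaling, which centres the libraries on most genes, moved the log2 changes by 0.34 at C, 0.47 at K1 and -0.59 at K3, and DESeq2 size factors moved them by 0.50, 0.47 and -0.29. None of the 19804 identifiers matched a name in the reference table, so the larva and adult labels were not checked against marker genes. Junctions were given the symbol of the RefSeq gene that alone contains them, and these symbols carry no description of function here.

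Among gene identifiers, 202 of 3075, or 6.57%, were at least 4-fold higher in the C adult, and 1114, or 36.2%, were at least 4-fold higher in the C larva. Of these, 129 of the 202 and 544 of the 1114 changed at least 2-fold in the same direction at both other sites. The members were the 19 adult-high and 145 larva-high identifiers that changed so at neither site. Of these, 2 adult-high and 17 larva-high identifiers changed at least 2-fold the opposite way at both other sites, while 2 and 22 had too few reads for a fold at either. For 15 of the 19 and 87 of the 145 the reads at both other sites could have shown a change in the same direction; for the rest they were too few at 1 site or both.

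The members also differed in which C library stood apart, which the rule shapes in part. Each C library was ranked only among the libraries of its own stage. Among larva-high identifiers the C larva was the highest of the larval libraries in 137 of 145 members. The same held in 544 of the 969 that were past 4-fold but not members. The C adult was the lowest of the adult libraries in 78 of those 145 members and in 212 of the 969. Among adult-high identifiers the C adult was the highest adult library in 16 of 19 members, against 93 of 183 non-members. The C larva was the lowest larval library in 14 of the 19 and 66 of the 183. The members were lower in level: in the C library where they were higher, the median was 9.38 CPM for larva-high members and 22.6 CPM for larva-high non-members.

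The identifier AAEL012575 had the clearest reversal between sites among the 4 identifiers chosen by fold. It had 104 reads in the C larva and 2521 in the C adult, 4007 and 403 at K1, and 3987 and 227 at K3. These are 5.67 and 578 CPM at C, 291 and 38.6 CPM at K1, and 331 and 69.4 CPM at K3. The adult was 102-fold higher at C (83.7 to 125), whereas the larva was 7.55-fold higher at K1 (6.82 to 8.39) and 4.77-fold higher at K3 (4.17 to 5.48). The C larva was the lowest of the 6 libraries and the C adult the highest, and the reversal held under both other scalings.

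The identifier AAEL017500 had 0 reads in the C larva and 125 in the C adult, or 28.7 CPM. Its K1 libraries held 38.5 CPM in the larva and 46.7 CPM in the adult, and its K3 libraries 171 and 17.1 CPM. The adult was at least 175-fold higher at C, against a floor of 3 reads in the larva. The stages lay within 1.21-fold at K1, and the larva was 10.0-fold higher at K3, so the larva of C was the library that stood apart.

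In the other direction, AAEL007579 had 1107 reads in the C larva, or 60.4 CPM, and 0 in the C adult. It lay between 1.83 and 3.15 CPM in the 4 other libraries. The C larva was at least 87.8-fold above the C adult, and the high larval level was seen at C and at neither other site. Under TMM factors and under DESeq2 size factors its log2 change at K3 was -1.37 and -1.07, past 2-fold in the same direction, so it was a member with library totals and with neither other scaling. AAEL003723 had 51.9 CPM in the C larva and 0.688 CPM in the C adult, where it had 3 reads, a ratio of 75.5 (25.8 to 367). At K1 the adult was 4.13-fold higher, at 162 against 39.2 CPM, and at K3 the adult was 1.38-fold higher, at 92.6 against 67.0 CPM. Here the C adult was the low library of the 6.

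**Figure D1:**
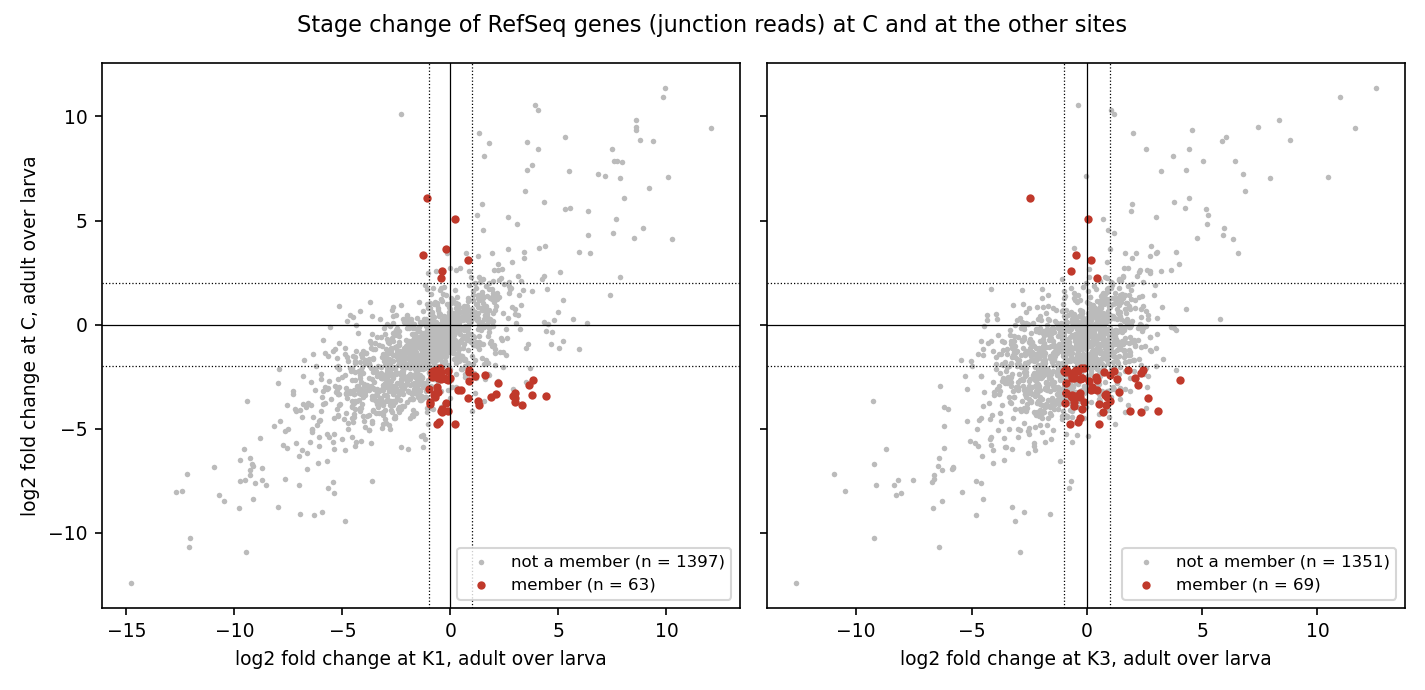
The log2 change from larva to adult of RefSeq genes, from junction reads, at C (vertical axis) against K1 (left) and K3 (right), for genes with 100 reads at C and a fold at the site drawn. Dotted lines mark 4-fold at C and 2-fold elsewhere; members (red, 63 with a fold at K1 and 69 at K3) fall outside the cloud of genes that change the same way at both sites, most of them on the larva-high side.

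Summed over the junctions of a RefSeq gene, 92 of 1494 genes, or 6.16%, were at least 4-fold higher in the C adult and 561, or 37.6%, in the C larva. Of these, 56 and 252 moved the same way at both other sites, and 9 and 78 were members. The 87 members lay on chromosomes 1, 2 and 3 in numbers of 22, 36 and 29, or 25.3%, 41.4% and 33.3%, against 25.5%, 39.8% and 34.7% of all 1494. The reference table lists 85 of them as protein coding. The member nearest the fold limit on the adult side was LOC5565444 at 4.72-fold, and the nearest gene short of it was LOC5576353 at 3.47-fold. On the larva side these were LOC23687721 at 4.30-fold and LOC5564509, just short of 4-fold.

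The introns of a member gene moved together at C and often did not elsewhere. Of 61 members with 2 or more introns of at least 10 reads at C, all introns moved one way in 60. At K1 this held for 8 of 30 such members and at K3 for 7 of 22, and in 15 and 13 of them at least 1 intron was 2-fold higher in the larva and another 2-fold higher in the adult. Among genes past 4-fold at C that were not members, introns moved one way in 381 of 406 at C, close to the members. They did so in 289 of 367 at K1 and 212 of 301 at K3. The rule prefers genes whose total changed little at K1 and K3, so the difference at these sites is shaped by it.

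The 9 adult-high RefSeq genes are given by which libraries stood apart, starting with those seen almost alone in the C adult. LOC5577994, on chromosome 3, had 967 junction reads in the C adult, or 588 CPM, and 0 in the C larva. It had 8 reads in the K3 larva and 0 in the other 3 libraries. The adult was at least 1248-fold higher at C, and no fold could be read at K1 or K3. LOC5566120, on chromosome 2, had 136 reads over 2 introns in the C adult, or 82.7 CPM, and 0 in all other libraries. The adult was at least 176-fold higher at C. These 2 genes had next to no reads outside the pool of C adults, so what they do in larvae and adults elsewhere was not detectable at this depth.

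For LOC5571813, on chromosome 2, the stages were reversed between C and the other sites. It had 4.24 CPM in the C larva and 285 CPM in the C adult, a 67.3-fold difference (45.6 to 103). At K1 the larva was 2.11-fold higher (1.83 to 2.43), at 153 against 72.4 CPM, and at K3 it was 5.53-fold higher (4.19 to 7.45), at 278 against 50.3 CPM. The C adult was near the K3 larva, and the C larva was far below the other 5 libraries. With TMM factors and DESeq2 size factors the log2 change at K1 was -0.47 and -0.53, under 2-fold, while the change at K3 stayed past it. Its introns lie on both strands in the junction tables, so 2 transcripts may have been added together.

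LOC5570388, a single annotated intron of 12020 bp on chromosome 2, had 24.2 CPM in the C larva and 242 CPM in the C adult, a 10.0-fold difference (8.29 to 12.1). At K1 the larva was 2.40-fold higher, at 349 against 145 CPM, and at K3 1.40-fold higher, at 379 against 272 CPM. The K1 log2 change was under 2-fold with TMM factors and DESeq2 size factors, at -0.65 and -0.71. Again the C larva stood below the other 5 libraries. The longest overhang of this intron, the stretch of a read on its shorter side, was 13 bases in the C larva. It was 15 bases in the C adult and at most 21 in the other libraries, so the placement of these reads is less sure. LOC5564268, on chromosome 3, had 10.5 CPM in the C larva and 90.6 CPM in the C adult, an 8.61-fold difference (6.41 to 11.7), and 49.0 to 86.9 CPM elsewhere. Its K1 change of 1.77-fold in the same direction passed 2-fold under both other scalings, at a log2 change of 1.43 and 1.37, which ends its place among the members.

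In LOC5574096, LOC5574964 and the long noncoding LOC5565444 the C adult was the highest of the 6 libraries. LOC5574096 had 5.18 CPM in the C larva, all from 1 junction with a longest overhang of 5 bases, and 63.2 CPM in the C adult, a 12.2-fold difference (8.18 to 18.6), and at most 10.4 CPM in the other 4. LOC5574964 had 19.5 and 116 CPM at C, a 5.96-fold difference (4.73 to 7.54), and 9.67 to 66.9 CPM elsewhere. LOC5565444 had 12.9 and 60.8 CPM at C, a 4.72-fold difference (3.49 to 6.40), and 16.9 to 26.9 CPM elsewhere. For these 3 genes the adult pool of C was above the others, and the summed reads of the stages at K1 were at most 1.37-fold apart. In LOC5574096 the K1 total joined introns that went opposite ways. The 59 bp intron had 49 reads in the K1 larva and 0 in the K1 adult. The 46030 bp intron had 0 and 34 there, the same direction as its 0 and 49 at C.

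LOC110677182, on chromosome 2, depends on how its reads are counted. Its uniquely mapped junction reads gave 7.07 CPM in the C larva and 241 CPM in the C adult, a 34.2-fold difference (25.1 to 47.6), and 98.5 to 123 CPM elsewhere. It also had 9095 multiply mapped junction reads in the C larva and 3790 in the C adult, and with these the log2 change at C was 0.81. At C the 212 bp intron had 4.17 CPM in the larva and 7.97 CPM in the adult, and the 72 bp intron 2.53 and 218 CPM. Both were higher in the C adult, and nearly all of the difference came from the 72 bp intron. At K1 the 72 bp intron was also higher in the adult, at 18.9 CPM in the larva and 102 CPM in the adult. The 212 bp intron had 73.9 and 5.54 CPM there. At K3 the 72 bp intron had 102 and 0 CPM and the 212 bp intron 6.87 and 113 CPM. The near-equal totals at K1 and K3 thus came from introns that moved opposite ways. The gene is reported as uncertain, since most of its reads were placed at several positions.

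**Figure D2:**
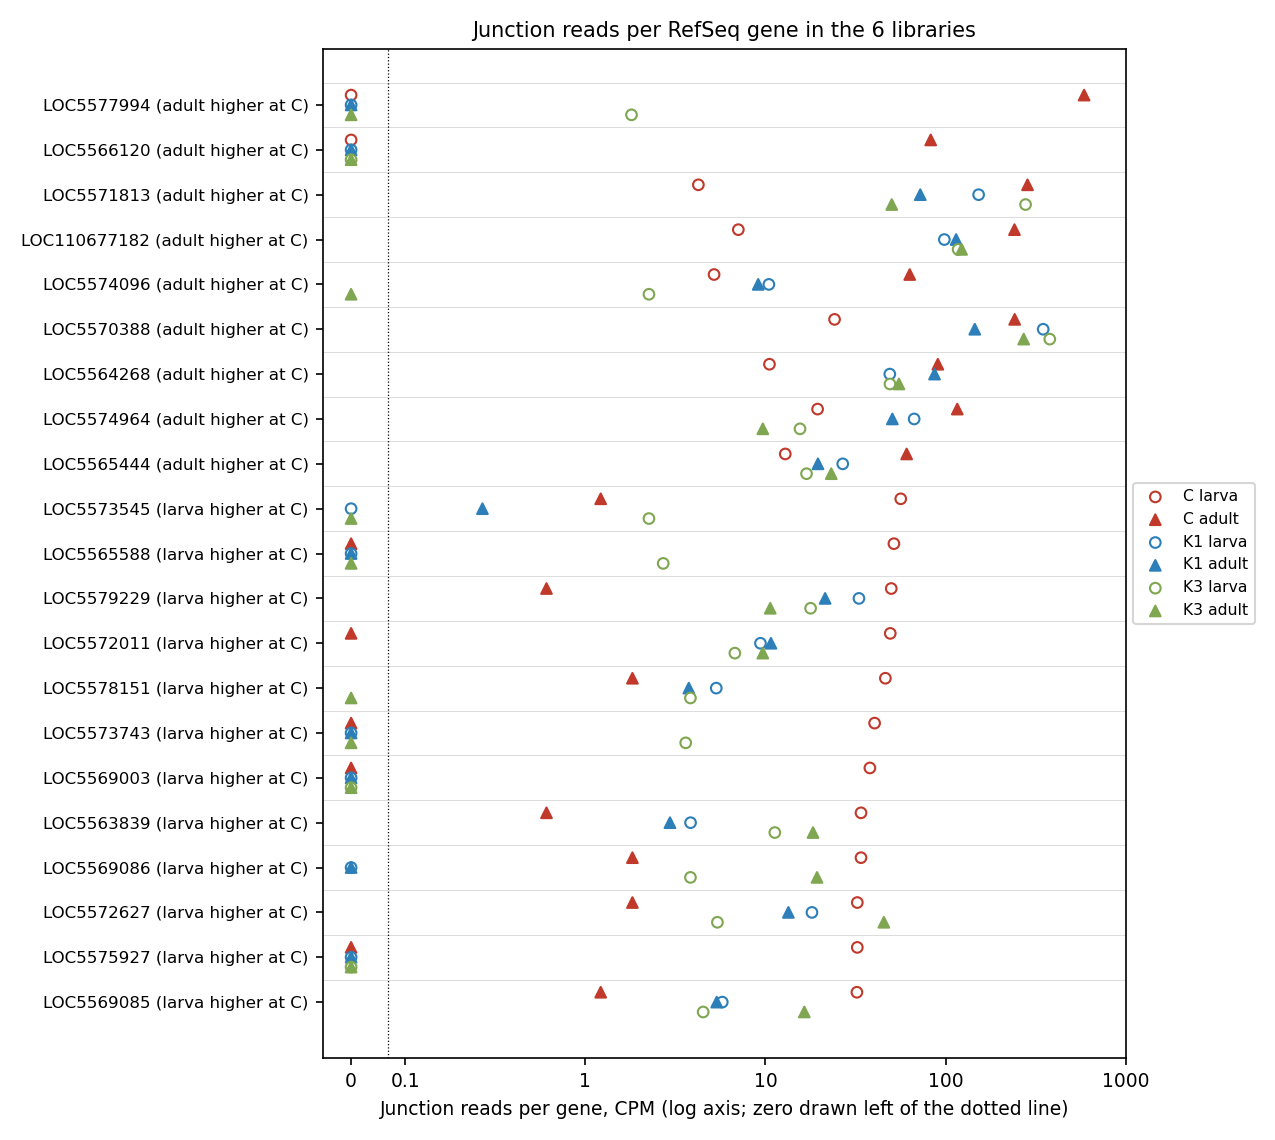
Junction reads per RefSeq gene in CPM (log axis, zero drawn left of the dotted line) for the 9 adult-high and the 12 most changed larva-high members, with open circles for larvae and filled triangles for adults at C (red), K1 (blue) and K3 (green). In LOC5571813, LOC5570388, LOC5564268 and LOC110677182 the C larva lies left of all other libraries, and in the 12 larva-high genes the C larva lies right of the C adult and, except in LOC5572627, of all other libraries.

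Of the 78 larva-high RefSeq genes, 21 had 0 reads in the C adult, and the C larva was the highest of the larval libraries in 76. Of all 561 past 4-fold, the 483 that were not members had it highest among the larvae in 276. Adults were left out of this ranking. The log2 change at C of these 78 had a median of -3.29, with genes at 0 set to their bound, and ran from -2.10 to -4.95. The bound itself is limited by depth, since 3 reads in the C adult are 1.82 CPM. The 12 genes with the largest folds follow, by what was seen at the other sites.

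In 5 of these genes the unique reads were near absent outside the C larva. LOC5573545, on chromosome 2, had 359 reads, or 56.4 CPM, in the C larva and 2 in the C adult, a ratio of 46.4 (12.7 to 384), with 0, 1, 10 and 0 reads in the K1 larva, K1 adult, K3 larva and K3 adult. All its unique reads came from 1 intron of 12788 bp, and its multiply mapped reads were not counted. These numbered 259 in the C larva and 9 in the C adult, 63 and 51 in the larva and adult of K1, and 54 and 0 in those of K3. LOC5565588, on chromosome 1, had 329 reads over 4 introns in the C larva, or 51.7 CPM, 12 in the K3 larva and 0 elsewhere, so the C larva was at least 28.3-fold above the C adult. LOC5573743, on chromosome 3, had 257 reads over 5 introns, or 40.4 CPM, 16 in the K3 larva and 0 elsewhere, at least 22.1-fold above the C adult. Both genes had their few other reads in larvae, at K3. The K3 adult had the fewest junction reads of all libraries, and with TMM factors LOC5573743 counted as changing the same way at K3.

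LOC5569003 and LOC5575927 had reads in the C larva and in no other library. LOC5569003, on chromosome 3, had 242 reads, or 38.0 CPM, spread over 4 introns with 140, 45, 43 and 14 reads. LOC5575927, on chromosome 2, had 206 reads, or 32.4 CPM, over introns with 74 and 132 reads. The C larva was at least 20.8-fold and 17.7-fold above the C adult. Both genes had reads at every one of these introns in the C larva.

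In LOC5579229, LOC5572011, LOC5578151 and LOC5563839 both stages at the other sites lay between the 2 libraries of C or near the lower one. LOC5579229 had 49.9 CPM in the C larva and 1 read in the C adult, a ratio of 82.1 (14.6 to 3254), against 10.6 to 33.0 CPM elsewhere. LOC5572011 had 49.3 CPM in the C larva and 0 in the C adult, at least 27.0-fold, against 6.76 to 10.7 CPM elsewhere. LOC5578151 had 46.3 CPM and 3 reads, a ratio of 25.4 (8.61 to 124), against 0 to 5.33 CPM elsewhere. In all 3 the C larva was the highest library.

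LOC5563839 had 33.9 CPM in the C larva and 1 read in the C adult, a ratio of 55.8 (9.91 to 2213), against 2.95 to 18.4 CPM elsewhere. Its K3 total joined introns that went opposite ways. The 11260 bp intron had 31 reads in the K3 larva and 0 in the K3 adult, the direction seen at C. The 62 bp intron had 8 and 18 there. For LOC5579229 and LOC5578151 the larva of K3 was past 2-fold above its adult once TMM factors were used, with log2 changes of -1.46 and -1.12, and LOC5579229 also under DESeq2 size factors at -1.14. These 2 genes therefore changed the same way at K3 under that scaling. The interval of the K1 ratio of LOC5578151, 0.71 to 2.96, and that of LOC5563839, 0.58 to 3.05, include 2-fold in the direction seen at C.

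LOC5569086, LOC5572627 and LOC5569085, all on chromosome 2, were higher in the adult at K3 in their summed junction reads. LOC5569086 had 33.9 CPM in the C larva and 3 reads, or 1.82 CPM, in the C adult, a ratio of 18.6 (6.28 to 90.9). At K3 the adult was 5.05-fold higher (2.51 to 10.3), at 19.3 against 3.83 CPM, and at K1 both stages had 0 reads. This K3 change came from the 68 bp intron, with 5 reads in the larva and 20 in the adult. The 74 bp intron had 12 and 0 reads there, the direction seen at C. LOC5572627 had 32.4 and 1.82 CPM at C, a ratio of 17.7 (5.98 to 86.7), and at K3 the adult was 8.40-fold higher (5.03 to 14.4), at 45.4 against 5.41 CPM. The K3 adult was the highest of the 6 libraries for this gene.

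LOC5569085 had 32.2 and 1.22 CPM at C, with 2 reads in the adult, a ratio of 26.5 (7.24 to 220). At K3 the adult was 3.65-fold higher (1.79 to 7.33), and at K1 the stages lay within 1.07-fold. This K3 change came from the 16104 bp intron, with 8 reads in the larva and 17 in the adult. The 5271 bp intron had 7 and 0 reads there and the 1554 bp intron 5 and 0, the direction seen at C. LOC5569085 and LOC5569086 are neighbours, with at most 2 protein-coding genes between them in the reference table. Another pair of larva-high neighbours was LOC5567426 and LOC5567423 on chromosome 1. Adult-high LOC5577994 has the larva-high LOC5577997 as a neighbour on chromosome 3. No share of such pairs among all genes is given here, so they are not read as clustering.

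Among RefSeq genes, 1 adult-high and 3 larva-high members changed the opposite way at both other sites. LOC5571813, above, was the adult-high one. LOC5569869, on chromosome 2, had 22.9 CPM in the C larva and 3 reads in the C adult, a ratio of 12.6 (4.22 to 61.7). The adult was 2.45-fold higher at K1 (1.86 to 3.26) and 2.03-fold higher at K3 (1.09 to 3.65). The latter fell to a log2 change of 0.31 with TMM factors and 0.62 with DESeq2 size factors. The introns of this gene did not all move one way at K1. The 9049 bp intron had 5.42 CPM in the K1 larva and 14.6 CPM in the K1 adult, and a 61 bp intron 0 and 9.82 CPM. The 67 bp intron had 6.02 and 4.03 CPM there and another 61 bp intron 4.42 and 3.53 CPM, the direction seen at C. LOC5566864, on chromosome 3, measured by 1 annotated intron of 1625 bp, had 64.1 CPM in the C larva and 8.51 CPM in the C adult, a 7.53-fold difference (4.43 to 13.9). At K1 it had 0 reads in the larva and 30 in the adult, at least 12.6-fold higher, and at K3 the adult was 4.61-fold higher (3.36 to 6.33), at 83.1 against 18.0 CPM. This reversal held under both other scalings. The intron also had 26 multiply mapped reads in the K1 larva and 0 in the K1 adult, which were not counted. The change at K1 therefore rests on uniquely mapped reads alone.

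For single junctions, 162 of 2232, or 7.26%, were at least 4-fold higher in the C adult, and 845, or 37.9%, in the C larva. Of these, 100 and 393 changed the same way at both other sites, and 16 and 121 were members. Coordinates are those of the deposited junction tables, 1-based, whose genome build is not given in the sources used here. A junction is called annotated as the tables mark it. Unannotated junctions made up 6 of the 16 adult-high members, or 37.5%, and 4 of the 121 larva-high members, or 3.31%, against 4.66% of all 2232. Among junctions past 4-fold that were not members they made up 15.1% of the adult-high (22 of 146) and 5.80% of the larva-high.

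The adult-high junction with the largest fold lay on chromosome 3 from 339002659 to 339101998, an unannotated intron of 99340 bp in no RefSeq gene. It had 644 reads in the C adult, or 367 CPM, and 0 in the 5 other libraries, at least 820-fold above the C larva. Its longest overhang, the stretch of a read placed on the shorter side of the intron, was 13 bases. The same short overhang of 13 bases was found for an unannotated intron on chromosome 1 from 191812309 to 191813772, with 168 reads in the C adult and 0 elsewhere, at least 214-fold. A longest overhang under 15 bases occurred in 2 of 16 adult-high and 4 of 121 larva-high members, against 48 of 2232 junctions.

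In LOC5577994 an unannotated intron of 10924 bp, on chromosome 3 from 81475933 to 81486856, had 487 reads in the C adult and 0 in all other libraries, at least 620-fold. Its longest overhang was 74 bases. An annotated intron from 81463931 to 81475755 had 473 reads in the C adult, 5 in the K3 larva and 0 elsewhere. Together they frame an exon of 177 bp, from 81475756 to 81475932, joined on its right side to a place the annotation does not list.

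A second framed exon lay on chromosome 1. The annotated 70 bp intron from 18954655 to 18954724, inside 2 overlapping RefSeq genes, had 180 reads in the C adult and 0 in the C larva, at least 229-fold. At K1 the larva was 1.53-fold higher (1.01 to 2.35), with 69 reads against 36, and K3 had 0 reads in both stages. An unannotated intron of 20220 bp from 18934366 to 18954585 had 115 reads in the C adult and 0 elsewhere, so it frames an exon of 69 bp that was joined in this way in the adult pool of C.

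LOC110678970, on chromosome 3, was absent from the C larva in all its junctions. The annotated 69 bp intron from 135247751 to 135247819 had 0 reads in the C larva and 221 in the C adult, or 126 CPM, at least 282-fold. The adult was 1.92-fold higher at K1 (1.39 to 2.68) and 1.90-fold higher at K3 (1.61 to 2.23). Over all junctions the gene had 0 and 461 reads at C, 101 and 203 at K1, and 612 and 566 at K3. In CPM the gene as a whole was higher in the adult at all 3 sites, with log2 changes of 1.34 at K1 and 1.99 at K3, and is no member. The 69 bp junction alone was just under 2-fold there, and with TMM factors and DESeq2 size factors its log2 change at K1 was 1.65 and 1.42, past the limit.

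The unannotated 54 bp intron in LOC5571813, on chromosome 2 from 86005899 to 86005952, had 150 reads in the C adult and 0 in the C larva, at least 191-fold. It had 238 and 62 reads at K1 and 264 and 0 at K3, so the larva was 3.06-fold higher at K1 (2.30 to 4.11) and at least 20.5-fold higher at K3. With TMM factors the K1 change was under 2-fold. The unannotated intron on chromosome 1 from 285215116 to 285227226, in no RefSeq gene, showed the same reversal. It had 4.17 CPM in the C larva and 315 CPM in the C adult, a 75.6-fold difference (51.7 to 115), with the larva 6.35-fold higher at K1 (5.12 to 7.96) and 13.3-fold higher at K3 (7.85 to 24.4). Its reversal held under both other scalings.

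The larva-high junction with the largest fold had 1134 reads in the C larva, or 169 CPM, and 0 in the C adult, at least 98.9-fold. It lay on chromosome 1 from 136011047 to 136312652, an unannotated intron of 301606 bp in no RefSeq gene, with a longest overhang of 12 bases. The K1 libraries had 0 reads in the larva and 32 in the adult, and the K3 libraries had 30 and 454, so the adult was at least 13.4-fold higher at K1 and 64.8-fold higher at K3 (44.8 to 97.2). The high libraries were the C larva and the K3 adult, one of each stage. An unannotated, noncanonical intron on chromosome 3 from 351295283 to 351306747 had 357 reads in the C larva and 0 in all other libraries, at least 31.1-fold, with a longest overhang of 56 bases.

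Annotated larva-high introns included one on chromosome 1 from 24198598 to 24240532, inside 2 RefSeq genes, with 597 reads in the C larva and 0, 0, 1, 2 and 0 in the C adult, K1 larva, K1 adult, K3 larva and K3 adult. The C larva was at least 52.1-fold above the C adult. The introns of LOC5573545, from 111987592 to 112000379, and of LOC5578151, from 246091625 to 246091686, both on chromosome 2, carry the values of those genes given above. In LOC5572011 the intron on chromosome 1 from 97463947 to 97491292 had 234 and 0 reads at C, 1 and 40 at K1, and 20 and 10 at K3. Its other intron, of 765 bp, had 80 and 0, 43 and 0, and 10 and 0 reads. The 2 introns of this gene moved together at C and apart at K1, and the K3 ratio of the first, 2.14 (0.90 to 4.79), includes no change. With TMM factors and DESeq2 size factors its K3 log2 change was 0.094 and 0.69.

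**Figure D3:**
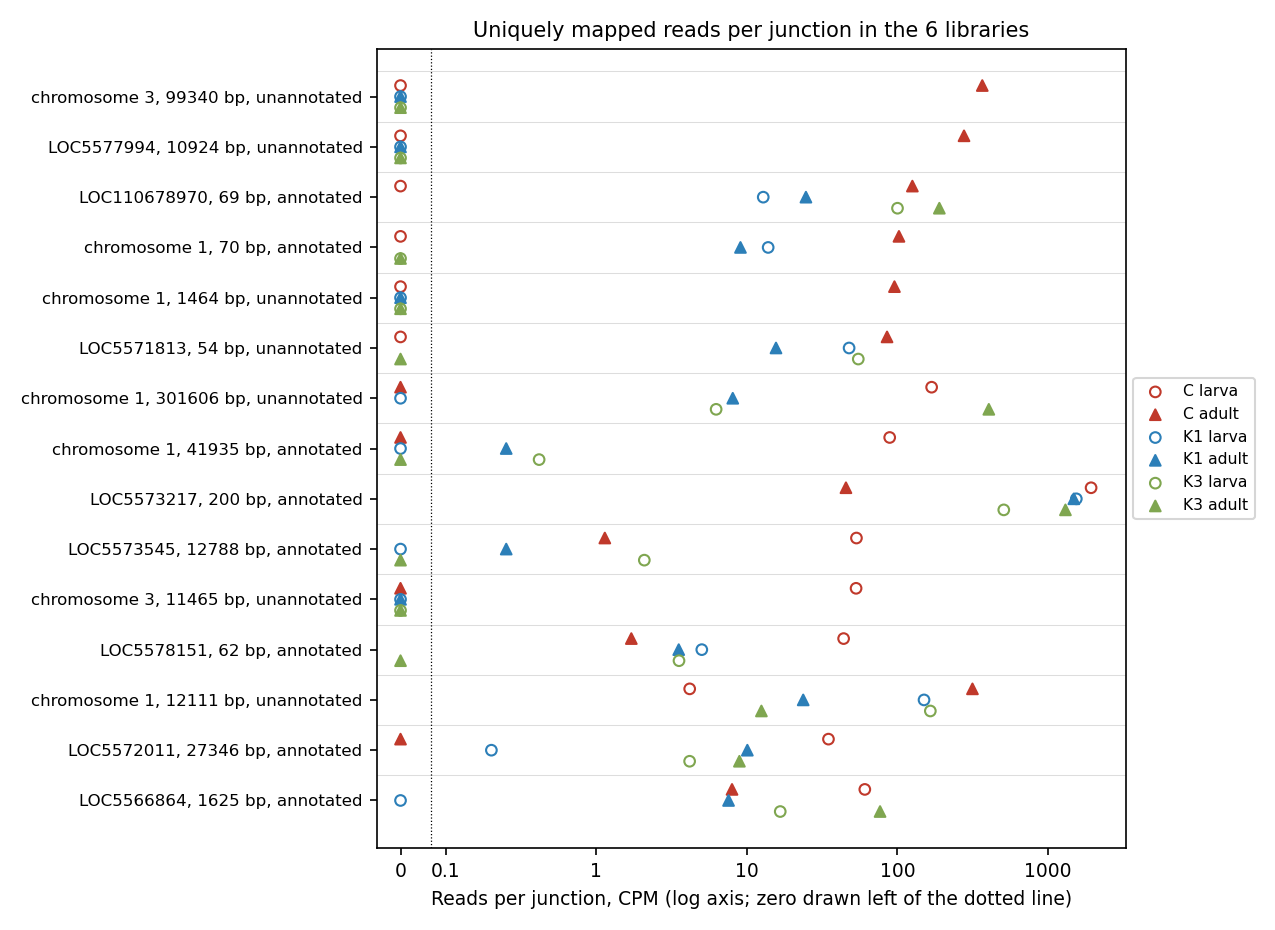
Uniquely mapped reads per junction in CPM (log axis, zero drawn left of the dotted line) for the 15 junctions described, labelled by RefSeq gene or chromosome, intron length and annotation, with larvae as open circles and adults as filled triangles. The first 6 rows are adult-high at C and the next 6 larva-high; the last 3 are further named junctions with the opposite change at K1 and K3.

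One junction changed with a gene that otherwise changed little. In LOC5573217 the annotated 200 bp intron on chromosome 3 from 409279001 to 409279200 had 13005 reads in the C larva and 80 in the C adult, or 1937 and 45.5 CPM, a 42.5-fold difference (34.2 to 53.7). All other introns of the gene together were 1.26-fold higher in the C larva (1.23 to 1.29), at 5995 against 4753 CPM. The adult was 2.57-fold higher in this junction at K3 (2.41 to 2.74), and at K1 the stages lay within 1.04-fold. The K3 log2 change was 0.36 with TMM factors and 0.95 with DESeq2 size factors, both under 2-fold. The intron is followed by an exon of 20 bp, from 409279201 to 409279220, and then by an intron of 66 bp.

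Per 100 reads of that 66 bp intron, the 200 bp intron had 61.8 in the C larva and 2.32 in the C adult. The same quantity was 41.6 and 61.6 in the larva and adult of K1 and 20.5 and 36.9 in those of K3. The C adult stood apart from the 5 other libraries, while the other introns had 8350 reads there. The longest overhang of the 200 bp intron, the part of a read on its shorter side, was 20 to 25 bases in the 6 libraries. This comparison within the gene was chosen after its values were seen.

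Junctions that share an intron start or end were also compared as shares, which cancels the level of the gene. Of 1404 junctions in 507 groups with at least 20 reads in both libraries of C, 52, or 3.7%, differed by at least 50 percentage points. These came from 22 RefSeq genes among those assigned to one. After leaving out those that moved at least 20 points the same way at another site, 17 junctions in 7 RefSeq genes remained. At least 10 group reads in both stages were present at both other sites for 3 of the 17, at one for 4, and at none for 10, so for most the other sites give no check.

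The pair with reads at every site was in LOC5564925, on chromosome 2. Here 2 exons of equal length, from 453386962 to 453387074 and from 453389209 to 453389321, are joined to the same neighbours on either side, so a transcript with one or the other keeps its length. Of reads entering either exon, the upstream one took 8.58% in the C larva (5.32 to 12.9, 20 of 233 reads) and 81.25% in the C adult (72.8 to 88.0, 91 of 112 reads). Of reads leaving either exon it took 5.91% (3.09 to 10.1) and 58.5% (47.9 to 68.6). Both ends of the exon pair thus gave the same order of the stages at C.

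At K1 the upstream exon took 0 of 190 reads entering in the larva, which allows up to 1.92%, and 23.2% in the adult (17.5 to 29.7). On leaving, it took 0 of 105 reads in the larva and 15.5% in the adult (10.2 to 22.2). At K3 it took 14.9% (7.40 to 25.7) and 35.1% (22.9 to 48.9) of reads entering, and 2.78% (0.34 to 9.68) and 0 of 21 reads leaving. The adult share was the higher one at all sites for reads entering, and the C adult was the highest of the 6 libraries. The members by the rule were the junctions that leave the pair, since those that enter it moved the same way by at least 20 points at another site.

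**Figure D4:**
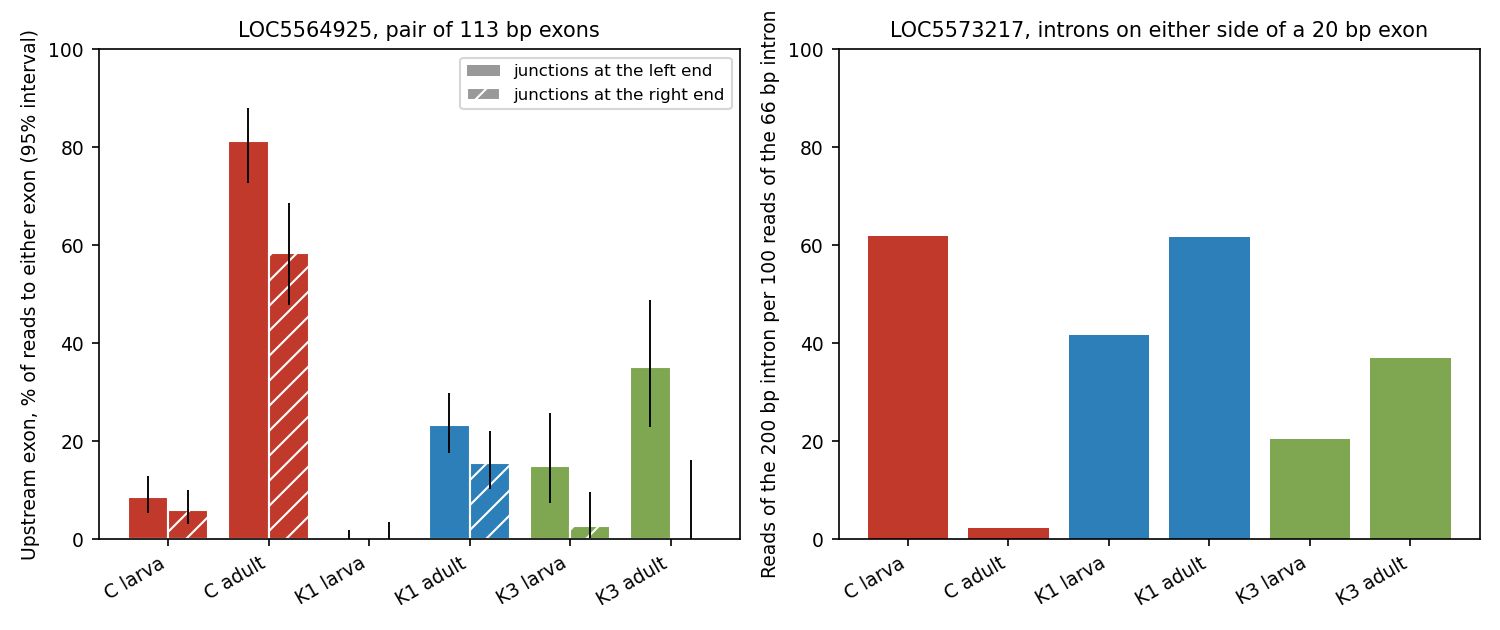
Left: share of reads that use the upstream exon of the pair in LOC5564925, with exact 95% intervals, for junctions entering (plain) and leaving (hatched) the pair in each library; the C adult stands at 81.25% and 58.5%. Right: reads of the 200 bp intron of LOC5573217 per 100 reads of the 66 bp intron that follows its 20 bp exon, which are 2.32 in the C adult and 20.5 to 61.8 elsewhere.

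In LOC5576477, on chromosome 1, the intron from 108288718 to 108298915 took all 396 reads of its group in the C larva and 10 of 20 in the C adult. It took 67 of 67 and 55 of 58 at K1, and 97 of 103 in the K3 larva, with 0 group reads in the K3 adult. The other 10 reads of the C adult went to an intron from 108288718 to 108297863, whose longest overhang was 6 bases. The C adult therefore had a share of 50% (27.2 to 72.8), below the shares of the other 4 libraries with reads.

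In 4 further genes no other site had 10 group reads in both stages. LOC5574096 joined the intron start at 31113072 on chromosome 2 to 31128156 in 33 of 33 reads of the C larva and to 31159101 in 49 of 49 reads of the C adult. The K1 adult used the same longer intron as the C adult in 34 of 34 reads. The longest overhang of the shorter intron was 5 bases in the C larva, and all 33 larval reads of this gene at C rest on it. In LOC5578556, on chromosome 3, the intron from 181725654 to 181725728 held 30 of 30 reads of its group in the C adult and 0 of 22 in the C larva, where all reads came from an unannotated intron that starts at 181471898. LOC5569749, on chromosome 3, joined 381911006 to 381926049 in 30 of 30 reads of the C larva and in 5 of 25 of the C adult, and the K1 adult did so in 0 of 27. In these genes the C adult leaned the same way as the K1 adult wherever the latter had reads.

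In LOC5573467, on chromosome 2, the intron from 91018606 to 91031373 held 24 of 39 group reads in the C larva and 0 of 120 in the C adult. It held 0 of 438 in the K1 adult, 2 of 8 in the K3 larva and 0 of 97 in the K3 adult. A second place in the gene, the intron from 91031726 to 91032090, held 19 of 35 and 0 of 149 at C, and 2 of 379 in the K1 adult. The K1 larva had 0 reads at both places. The adults of all 3 sites were alike here, and larvae outside C were too shallow in this gene to compare.

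LOC5575615, on chromosome 3, had 620 junctions in the tables, all unannotated, with 460 on one strand and 152 on the other. Of the 56 with at least 10 reads at C, 48 were within 1% of 19494 bp long. The intron from 135889482 to 135908975 took 99 of 107 group reads in the C larva and 103 of 309 in the C adult, against 90.7% to 100% in the 4 other libraries. With near-equal introns on both strands over one stretch, these are counts of read placements, and they are not read as splicing of 1 transcript.

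The median intron length was 1884 bp for adult-high and 404 bp for larva-high junction members, against 504.5 bp for all junctions with 100 reads. Introns over 10 kb made up 6 of 16 adult-high members, or 37.5%, and 30 of 121 larva-high members, or 24.8%, against 23.3% of the 2232. Introns of up to 100 bp made up 3 of 16 and 49 of 121, against 729 of 2232. The single noncanonical member is the chromosome 3 intron described above.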

How the data were processed

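RNA from 6 pools was sequenced as paired ends, per the labels' protocols. The submitters' processing notes name STAR, edgeR, fastp, cutadapt and FastQC, with no versions. The genome build is "not given in the sources used here". Per gene, the authors deposited raw counts for both strands, forward and reverse, after 4 summary rows, which were left out. Whether single reads or pairs were counted is unsure. Forward counts were 1.15 to 1.24 times the reverse ones, so the sum over strands was used, and overlapping genes on opposite strands cannot be told apart. Per intron, the authors deposited counts of uniquely and of multiply mapped reads, of which the unique ones were used.

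CPM is relative to all gene counts, to all unique junction reads, or to those in RefSeq genes. Introns were assigned by position, without strand, to the RefSeq gene (AaegL5.0) that alone contains them. Of 15077 annotated introns on chromosomes 1 to 3, 99.97% lay in a RefSeq gene, against 53.55% after a shift by 1000000 bp. Of 21668 junctions, 78.6% lay in exactly 1. The table has no product descriptions, so the planned word lists and stage markers could not be applied.

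A lower library under 3 reads was set to 3, and the fold is then a lower bound; with 1 to 3 reads the ratio and its interval are given. No fold is given where both libraries have 3 reads or fewer. Ratio intervals and shares use exact Clopper-Pearson limits at 95%. Named were the 2 identifiers per direction with the largest fold that have a fold at both other sites, up to 12 RefSeq genes and 6 junctions per direction by fold, 6 shares by difference (at most 1 junction or share per RefSeq gene, with LOC5576477 added), and up to 8 RefSeq genes or junctions opposite at both other sites. For the direction of single introns 0.5 reads were added. Neighbours, framed exons and details within a gene were chosen after their values were seen. The members and lists were chosen with earlier results of these data known.

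TMM factors (edgeR 4.0.16) and DESeq2 1.42.0 size factors in R 4.3.3 served as other scalings; no test was run. Python 3.11.15 with pandas 2.3.3 and scipy 1.17.1 was used, and the member rule was tested on simulated data.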

Additional observations from a re-analysis of the deposited data

Results flagged for a closer look

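Of all members whose stage change at C ran opposite to that at both other sites, 9 named ones are given here. The difference was not tested, since each side is 1 library, and the values are log2 changes from larva to adult. Identifier AAEL012575 changed by 6.67 at C, -2.92 at K1 and -2.25 at K3. LOC5571813 changed by 6.07, -1.08 and -2.47, and its intron from 86005899 to 86005952 by 7.58, -1.61 and -4.36. The intron on chromosome 1 from 285215116 to 285227226 changed by 6.24, -2.67 and -3.73.

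In the other direction, the intron on chromosome 1 from 136011047 to 136312652 changed by -6.63 at C, 3.74 at K1 and 6.02 at K3. The intron of LOC5572011 from 97463947 to 97491292 changed by -4.35, 4.06 and 1.10, and LOC5569869 by -3.65, 1.29 and 1.02. The introns of LOC5569869 did not all share its change at K1. LOC5566864 changed by -2.91, 3.65 and 2.20, and its intron from 363796529 to 363798153 by -2.93, 3.65 and 2.20. For this gene and its intron the K1 value leaves out 26 multiply mapped reads in the K1 larva. A value against 0 reads is a bound.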

How the results depend on the processing

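Counts are given for identifiers, RefSeq genes and junctions, in that order, beside 164, 87 and 137. A minimum of 50 reads gave 351, 217 and 468, and one of 500 reads gave 31, 6 and 16. A fold of 2 at C gave 368, 177 and 276, and a fold of 8 gave 90, 53 and 90. Counting any change in the same direction as the same way gave 72, 34 and 76. With K1 as the only other site there were 309, 148 and 224, and with K3 498, 284 and 427. A pseudocount of 1 CPM gave 115, 55 and 90. The forward column gave 99 identifiers and the reverse column 104. The shares fell from 17 to 3 with 50 group reads and rose to 49 with 30 points.

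TMM factors gave 37 adult-high and 111 larva-high identifiers, 19 and 53 RefSeq genes, and 26 and 74 junctions. DESeq2 size factors gave 35 and 115, 14 and 65, and 20 and 102. Of 42 named features, 35 were still members under TMM factors and 38 under DESeq2 size factors, and 5 and 6 of the 9 named as opposite at both other sites were still so.

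Chosen after seeing the data, the same CPM minimum in both libraries of C gave 49, 19 and 35, split into 19 and 30, 9 and 10, and 16 and 19 adult-high and larva-high. The excess of larva-high members was thus smaller under this minimum, and its cause was not tested. Of all features past 4-fold under it, 202 and 512, 92 and 215, and 162 and 296 were adult-high and larva-high. A readable fold at both other sites gave 102, 43 and 60.

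Of 130 alternatives for named features, 113 gave a log2 change at C inside the counting-error interval of the reported change. The change fell outside it in 17 and reversed in 0, and the causes were not tested. The interval is wide where the lower library has few reads, so 113 is no measure of closeness. AAEL003723 went from -6.24 to -5.03 with the forward column and stayed inside. LOC5565444 went from 2.24 to 2.79 with TMM factors and fell outside. No paired analysis was possible because each stage and site has 1 library. Depth limits larva-high folds most, since 3 gene reads in the C adult are 0.688 CPM against 0.164 in the C larva.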
